A study of Homo sapiens with 3 samples.

Results

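The genes described here encode the nuclear subunits of the 5 oxidative phosphorylation complexes, measured in 22RV1 cells, a SPINK1-positive human prostate cancer line, after knockdown of SPINK1. They were taken by gene symbol alone: the NDUFA, NDUFB, NDUFC, NDUFS and NDUFV families of complex I, SDHA to SDHD of complex II, the UQCR genes and CYC1 of complex III, the numbered COX subunit families of complex IV and the ATP5 genes of complex V. The array carried 84 such genes among 43317 gene names, and 79 of them were measured. Each of 3 two-colour arrays compared RNA of cells transduced with 1 lentiviral hairpin against SPINK1 (shSPINK1-1, shSPINK1-2 or shSPINK1-3, labelled with Cy5) with RNA of cells carrying the scrambled hairpin (shSCRM, labelled with Cy3). All groups were therefore virus-transduced cells of 1 line, there was 1 array per hairpin and no dye swap, so that an effect of the dye and an effect of the knockdown cannot be told apart. The labels do not say whether the control RNA of the 3 arrays came from separate cultures, and the p-values measure only the spread between these arrays. Values are log2 ratios of shSPINK1 over shSCRM, so that a negative value is a lower level after knockdown, and a gene is said to have risen or fallen where its adjusted p in limma, over all 17061 genes measured, was under 0.05.

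Oxidative phosphorylation is the process by which mitochondria turn the oxidation of nutrients into ATP. Complexes I and II pass electrons from NADH and succinate to ubiquinone, complex III passes them to cytochrome c and complex IV to oxygen, while complexes I, III and IV pump protons whose return through complex V, the ATP synthase, drives ATP formation. Most subunits are encoded in the nucleus and imported, and a small number are encoded by mitochondrial DNA, so that both genomes supply parts of complexes I, III, IV and V.

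SPINK1 itself, the targeted gene, read -3.71, -3.65 and -3.89 on the arrays of hairpins 1, 2 and 3 (mean -3.75, limma adjusted p = 6.05e-07). The prostate epithelial genes HOXB13, KLK2, KLK3, FOLH1, KRT8 and KRT18 were all measured, the leukocyte gene PTPRC and the fibroblast gene COL1A1 lay near the dim end of the range at a mean log2 intensity of 5.99 and 6.14, and VIM, at 9.26, was measured too. The 3 arrays lay on 1 slide and were scanned together, and between 41.3% and 46.8% of probes were well above background in the Cy5 channel.

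Short windows upstream of the start sites are shown first, because they hold what several of these genes share in sequence that the choice by symbol did not use. RefSeq promoters (GRCh38.p14, 250 bases before to 50 bases after the start) were given for 64 of the 79 measured genes. GCATGCGC, the core of the site of nuclear respiratory factor 1, a regulator of respiratory chain genes, was found on either strand in 13 of the 64 (20.3%), against 3.27% of all 27305 promoters. CCGGAAG, a site of the ETS family to which GABP belongs, was found in 18 (28.1%), against 10.7%, and TATAAA in 6 (9.38%), against 11.95%. The 27305 promoters were not matched to the 64 for base composition or for strength of expression.  The 250 bases before the start of a pair of genes that fell, SDHD and ATP5C1, and a pair that rose, COX5B and COX6A1, are given as examples chosen after their values were seen, with the core (matches on both strands run together where they overlap) and the ETS letters in capitals where present.
SDHD, chr11:112086623-112086872, plus strand: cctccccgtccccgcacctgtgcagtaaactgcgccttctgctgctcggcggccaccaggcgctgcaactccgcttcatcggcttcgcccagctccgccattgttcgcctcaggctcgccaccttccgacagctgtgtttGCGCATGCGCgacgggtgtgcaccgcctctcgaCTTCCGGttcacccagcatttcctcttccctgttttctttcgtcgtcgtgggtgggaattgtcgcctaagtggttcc
ATP5C1, chr10:7787927-7788176, plus strand: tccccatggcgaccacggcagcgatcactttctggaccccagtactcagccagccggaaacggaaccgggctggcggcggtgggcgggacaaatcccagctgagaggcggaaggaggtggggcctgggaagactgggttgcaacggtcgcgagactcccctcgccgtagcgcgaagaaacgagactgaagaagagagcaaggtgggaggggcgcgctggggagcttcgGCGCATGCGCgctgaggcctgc
COX5B, chr2:97645812-97646061, plus strand: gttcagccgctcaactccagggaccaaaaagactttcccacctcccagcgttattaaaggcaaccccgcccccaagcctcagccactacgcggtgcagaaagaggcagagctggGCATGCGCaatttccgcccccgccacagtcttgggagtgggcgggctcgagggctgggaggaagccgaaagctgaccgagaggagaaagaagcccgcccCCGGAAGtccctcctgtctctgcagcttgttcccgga
COX6A1, chr12:120437863-120438112, plus strand: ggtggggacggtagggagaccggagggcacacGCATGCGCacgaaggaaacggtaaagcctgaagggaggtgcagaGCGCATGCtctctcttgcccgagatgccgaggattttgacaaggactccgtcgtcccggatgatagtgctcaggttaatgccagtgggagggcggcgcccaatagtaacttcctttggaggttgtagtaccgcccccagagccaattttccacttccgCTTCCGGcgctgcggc
The same letters therefore stood before genes of both directions. Among promoters of genes that rose, 5 of 18 held the core, and among those of genes that did not pass the test 6 of 43 did. Only 3 of the genes that fell had a promoter to search, and 2 of them held it. These are matches of letters and carry no measurement of binding.

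Of the 79 genes, 21 rose and 5 fell after SPINK1 knockdown, and 53 did not pass the test. Those are 26.6% and 6.33% of the genes, where 4.77% of all genes rose and 8.72% fell. On all 3 arrays 45 genes lay above 0 and 11 below, against 21.2% and 29.1% of all genes, and the other 23 changed sign between hairpins. The median log2 ratio was 0.13 (0.17, 0.06 and 0.10 with hairpins 1, 2 and 3), against -0.01 over all genes, but became -0.21 where loess was replaced by centring each array on its median, a setting that put the median of all genes at -0.23. Of the 21 genes that rose, 12 kept their sign under that setting, and COX6A1 turned to -0.05 in the log ratios of the scanner software. The 5 that fell kept theirs in both. Median centring lowered the ratios of the family, so a gene below 0 was bound to keep its sign there. That adds no support to the falls. None of the 5 that fell passed the test by limma without hairpin 2 or without hairpin 3, where 5 genes below 0 had an unadjusted p under 0.05. Of all genes 616 fell without hairpin 2 and 278 without hairpin 3. In bulk RNA, fewer expressing cells and less RNA per cell cannot be told apart. The changes were small: NDUFA5 alone passed the test with a mean beyond 0.5, as did 0.328% of all genes in that direction, and no gene did so below -0.5, where 0.393% of all genes lay. No gene of the family passed the test in the log ratios of the scanner software or in the deposited table, where 3 of all genes did in each. In each, 5 genes of the family above 0 and 4 below had an unadjusted p under 0.05. The plot of the genes by hairpin shows this spread.

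**Figure D1:**
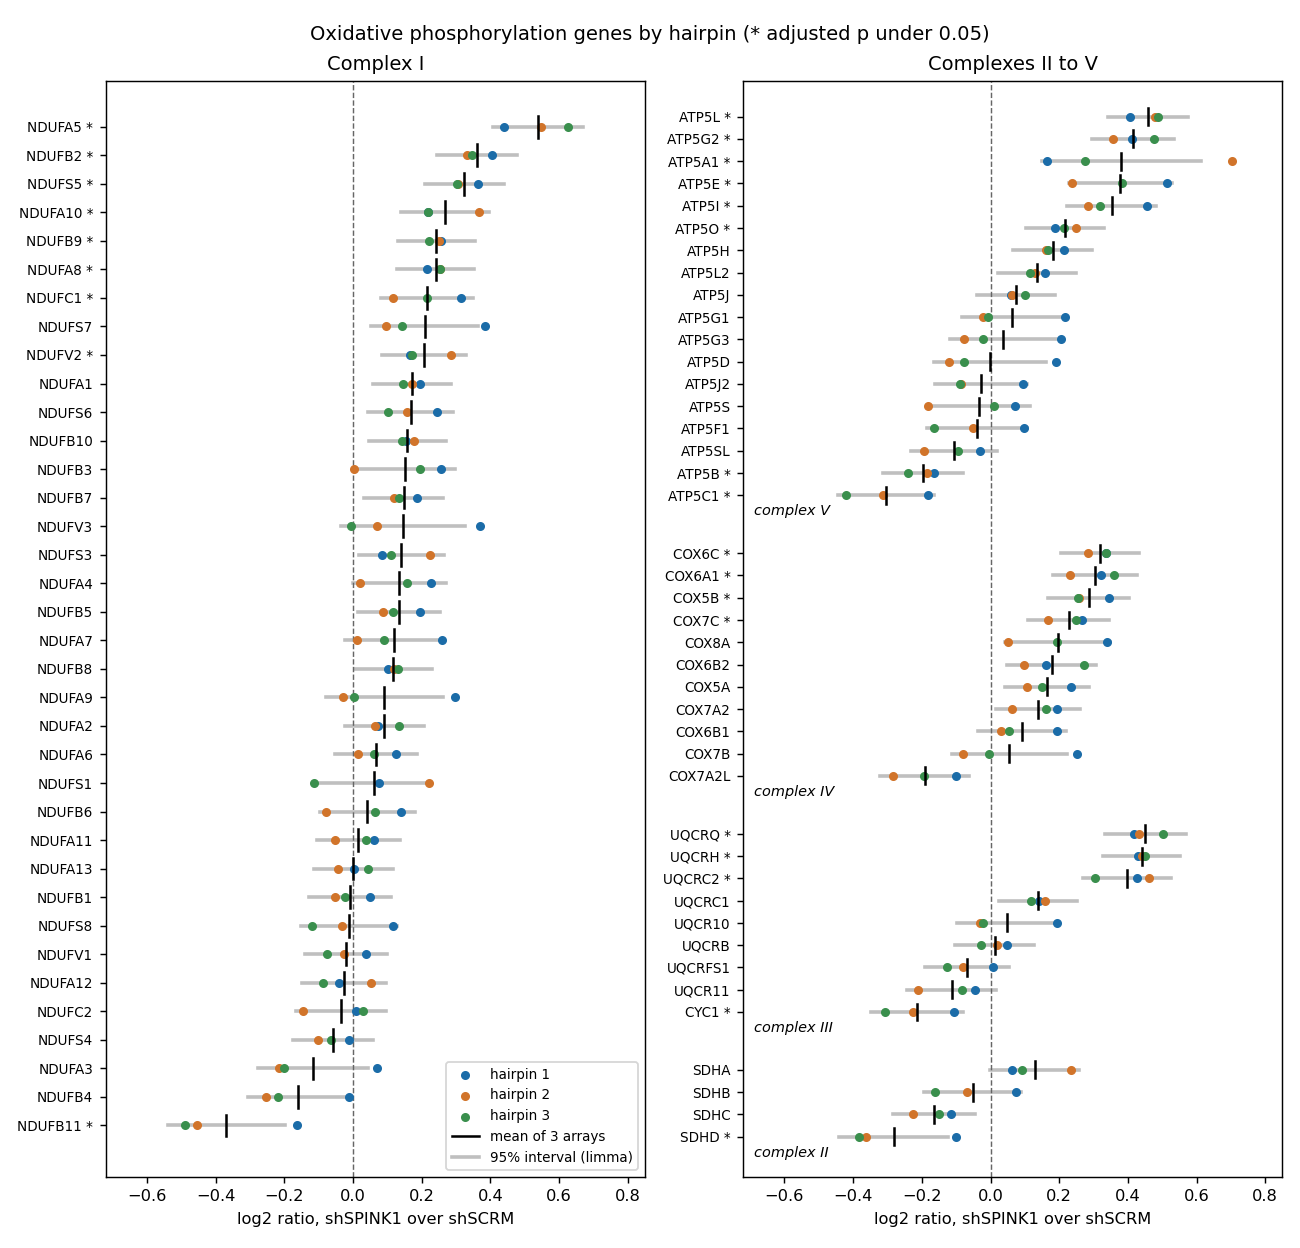
Log2 ratio of shSPINK1 over shSCRM (x axis) for the measured genes (y axis; 1 gene is not drawn), with complex I on the left and complexes II to V on the right; points are the 3 hairpins, black ticks their mean, grey bars the 95% interval of limma, and * marks an adjusted p under 0.05. Most genes lie between -0.3 and 0.5, and ATP5A1 stands out for a single high value with hairpin 2, 0.70.

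Brightness moved with these ratios. The family is strongly expressed, with 40 of its 79 genes in the brightest twentieth of all genes, and genes of that twentieth as a class lay above 0. There 18 of the 40 (45%) rose and 1 fell, and of the 813 other genes in the same twentieth 29.6% rose and 4.92% fell. The medians were 0.17 and 0.13. In the next twentieth 2 of 27 genes of the family rose and 2 fell (7.41% each), against 7.14% and 11.99% of the 826 other genes. Set against the median of the 100 other genes nearest in brightness, 50 of the 79 genes lay above it, and the median difference was 0.06. It was 0.11 in complex I, -0.07 in complex II, 0.06 in complex III, 0.02 in complex IV and 0.04 in complex V. The part of brightness in the ratios was not tested.

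**Figure D2:**
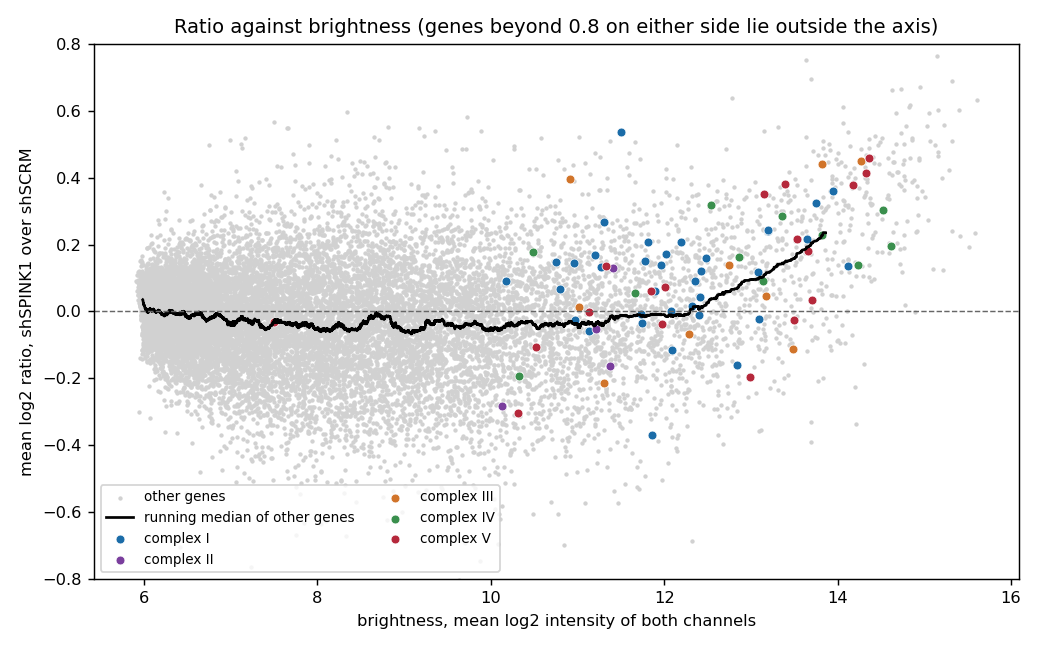
Mean log2 ratio over 3 arrays (y axis) against brightness, the mean log2 intensity of both channels (x axis); grey points are other genes, coloured points the family by complex (1 gene is not drawn), and the black line the running median of the other genes. The line climbs above 0 at the bright end, where 40 genes of the family lie, while NDUFA5 (0.54) and UQCRC2 (0.40) lie high above it and NDUFB11 (-0.37) and ATP5C1 (-0.30) below it.

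Complex I, the NADH dehydrogenase, had 8 of its 37 genes higher (21.6%) and 1 lower (2.70%), with a median of 0.13. Of all genes 4.77% rose and 8.72% fell. The risen NDUFB2, NDUFS5, NDUFB9, NDUFA8, NDUFC1 and NDUFV2 lay in the brightest twentieth, where 29.6% of the other genes rose. NDUFA5 and NDUFA10 lay in the next, where 7.14% did. NDUFA5, an accessory subunit of the peripheral arm, had log2 ratios of 0.44, 0.55 and 0.63 with hairpins 1, 2 and 3. All were well above 0, and the mean of 0.54 (SE 0.06, limma adjusted p = 0.0062) was higher than that of each of the 100 genes nearest in brightness. It stayed above 0 under median centring, at 0.20, and was 0.62 in the log ratios of the scanner software. NDUFB11, an accessory subunit of the membrane arm, read -0.16, -0.45 and -0.49. Hairpin 1 gave the weakest value, and the mean was -0.37 (SE 0.07, limma adjusted p = 0.021), above 3 of the 100 genes of like brightness. Its probe lies within a single exon of the gene on the X chromosome and is given in lower case, as the probe of the gene of the family that fell most.
NDUFB11, hg19 chrX:47002046-47002105, minus strand: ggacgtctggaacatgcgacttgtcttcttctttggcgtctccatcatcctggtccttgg
NDUFB2 (0.41, 0.33 and 0.35), another membrane arm subunit, rose with a mean of 0.36 (limma adjusted p = 0.0082), and NDUFS5, NDUFB9, NDUFA8, NDUFA10, NDUFC1 and NDUFV2 rose with means between 0.21 and 0.32. Genes of like brightness had medians of 0.26 for NDUFB2, 0.20 for NDUFS5, 0.19 for NDUFC1, 0.09 for NDUFA8, 0.08 for NDUFB9 and -0.02 for NDUFA10 and NDUFV2. The calls of NDUFB9, NDUFA8, NDUFC1 and NDUFV2 were lost without background correction, with an offset of 16 and within twentieths of brightness. That of NDUFS5 was lost without background correction. The 7 core subunits encoded in the nucleus, which carry the flavin, the iron-sulfur clusters and the quinone site, gave 1 call: NDUFV2, which holds an iron-sulfur cluster, read 0.17, 0.29 and 0.17. A dimmer kept probe of NDUFV2 read -0.01, 0.19 and -0.03. NDUFV1, which binds NADH, read 0.04, -0.03 and -0.08, and NDUFS1, the largest of the peripheral arm, 0.07, 0.22 and -0.11. Of the 30 other genes counted here by symbol, which include NDUFA4 (COXFA4 in RefSeq), 7 rose and 1 fell. NDUFAB1, which the choice by symbol left out, read 0.15, 0.08 and 0.04 and did not pass (limma adjusted p = 0.28).

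Complex II, succinate dehydrogenase, had none of its 4 genes higher and 1 lower, where 8.72% of all genes fell, with a median of -0.11. SDHD, a membrane anchor, read -0.10, -0.36 and -0.38, with a mean of -0.28 (SE 0.07, limma adjusted p = 0.037), and hairpin 1 again lay nearest to 0. The call was lost without background correction (limma adjusted p = 0.067), with an offset of 16 (0.060), within twentieths of brightness (0.066), without a filter on dim probes (0.058), with the mean of its probes (0.090) and without hairpin 2 (0.12) or hairpin 3 (0.19). Its 3 probes lie side by side or overlap and had means of -0.28, -0.16 and -0.25. SDHC, the other anchor, read -0.12, -0.23 and -0.15 (limma adjusted p = 0.075). The catalytic subunits did not pass: SDHB, the iron-sulfur protein, read 0.08, -0.07 and -0.16, and SDHA, the flavoprotein, 0.06, 0.23 and 0.09. SDHA had 4 probes, each highest with hairpin 2, at 0.23, 0.34, 0.61 and 0.26, while the other hairpins lay between -0.19 and 0.09. The probe with the widest range is shown, since it spans an intron, and the annotation of SDHA probes also lists the pseudogene SDHAP3.
SDHA, hg19 chr5:235411-236558, plus strand: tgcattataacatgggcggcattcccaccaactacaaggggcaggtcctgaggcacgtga

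Complex III, the cytochrome bc1 complex, had 3 of its 9 measured genes higher (33.3%) and 1 lower (11.1%), with a median of 0.05. The shares over all genes were 4.77% and 8.72%. The risen UQCRQ and UQCRH lay in the brightest twentieth, where 29.6% of the other genes rose, and UQCRC2 in a dimmer one, where 5.33% did. UQCRQ, a small subunit, read 0.42, 0.43 and 0.50 (mean 0.45, limma adjusted p = 0.0062), and UQCRH, the hinge protein, 0.43, 0.44 and 0.45 (mean 0.44, limma adjusted p = 0.0062). The hairpins were nearly equal in both. Both are among the brightest genes, where the 100 nearest genes had medians of 0.31 and 0.21. A further UQCRH probe, shown here because it crosses an exon junction, read 0.41, 0.32 and 0.38, and the annotation of UQCRH probes also lists the copy UQCRHL.
UQCRH, hg19 chr1:46775954-46782248, plus strand: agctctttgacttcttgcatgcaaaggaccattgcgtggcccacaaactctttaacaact
UQCRC2, a core protein, read 0.43, 0.46 and 0.30 (mean 0.40, limma adjusted p = 0.0082), above 99 of the 100 genes nearest in brightness, whose median was -0.02. Its partner UQCRC1 read 0.14, 0.16 and 0.12 and did not pass (limma adjusted p = 0.10). CYC1, cytochrome c1, read -0.11, -0.23 and -0.31 and fell (mean -0.21, limma adjusted p = 0.049). That call was lost without background correction (limma adjusted p = 0.086), with an offset of 16 (0.089), within twentieths of brightness (0.074), without a filter on dim probes (0.055) and without hairpin 2 (0.15) or hairpin 3 (0.26). UQCRFS1, the Rieske protein, read 0.01, -0.08 and -0.13, and UQCR11, a small subunit, -0.04, -0.21 and -0.08, and neither passed (limma adjusted p = 0.44 and 0.22).

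Complex IV, cytochrome c oxidase, had 4 of its 11 measured genes higher (36.4%) and none lower by limma, with a median of 0.18. Its 4 risen genes lay in the brightest twentieth, where 29.6% of the other genes rose. A single gene, COX7A2L, lay below 0 on all 3 arrays. COX6C read 0.34, 0.28 and 0.34, COX6A1 0.32, 0.23 and 0.36, COX5B 0.34, 0.26 and 0.26 and COX7C 0.27, 0.17 and 0.25. All 12 values were above 0, which is likely for genes picked by a call above 0 and adds no support to the calls. For COX6A1 and COX7C the genes of like brightness had medians of 0.37 and 0.21, for COX5B 0.14 and for COX6C 0.01. The calls of COX6A1, COX5B and COX7C were lost without background correction, with an offset of 16 and within twentieths of brightness. COX6C kept its call in each of these settings. COX6B2, whose value of 0.18 is the median of the complex, was measured only through a probe whose annotation also lists C3orf33, CAMLG and MXRA7, and its other probe was not well above background on all 3 arrays. COX5A read 0.23, 0.11 and 0.15 and did not pass (limma adjusted p = 0.079), and a dimmer probe overlapping it read 0.03, -0.21 and -0.13. COX4I1, a nuclear subunit that the choice by symbol left out, read 0.41, 0.60 and 0.45 (mean 0.48, limma adjusted p = 0.0065). COX6A2, COX7A1, COX7B2 and COX8C, forms known from muscle or testis, were not well above background on all 3 arrays in either channel, and neither was the pseudogene UQCRBP1 of complex III.

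Complex V, the ATP synthase, had 6 of its 18 genes higher (33.3%) and 2 lower (11.1%, against 8.72% of all genes), with a median of 0.07. Its 6 risen genes lay in the brightest twentieth, where 29.6% of the other genes rose. The subunits of its catalytic head, F1, went both ways. ATP5A1 (now ATP5F1A), the alpha subunit, read 0.17, 0.70 and 0.28 (mean 0.38, SE 0.10, limma adjusted p = 0.045), with hairpin 2 far above the others. Without hairpin 2 its mean was 0.22 and it did not pass (limma adjusted p = 0.11), nor did it without hairpin 3 (0.11), without background correction (0.081), with an offset of 16 (0.064), within twentieths of brightness (0.11), without a filter on dim probes (0.10) or with the mean of a gene's probes (0.051). ATP5B (ATP5F1B), the catalytic beta subunit, read -0.16, -0.19 and -0.24 (mean -0.20, SE 0.05, limma adjusted p = 0.042). The call of ATP5B was lost with an offset of 16 (limma adjusted p = 0.059) and without hairpin 2 (0.13) or hairpin 3 (0.22). ATP5C1 (ATP5F1C), the gamma subunit of the rotating shaft, read -0.18, -0.31 and -0.42 (mean -0.30, SE 0.06, limma adjusted p = 0.021). The hairpin values of alpha lay above 0 and those of beta and gamma below, which their calls make likely and which adds no support to the calls. The probes behind these values are shown, since the head is assembled from fixed numbers of these proteins and each gene had 1 probe kept.
ATP5A1, hg19 chr18:43666388-43666447, minus strand: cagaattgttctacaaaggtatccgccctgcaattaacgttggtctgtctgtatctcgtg
ATP5B, hg19 chr12:57036253-57036312, minus strand: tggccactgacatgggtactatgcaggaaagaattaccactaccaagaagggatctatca
ATP5C1, hg19 chr10:7839099-7840969, plus strand, spanning an intron: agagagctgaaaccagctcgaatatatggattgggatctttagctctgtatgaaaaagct
ATP5E (ATP5F1E), the epsilon subunit, read 0.51, 0.24 and 0.38 and rose (mean 0.38, limma adjusted p = 0.014), and ATP5D, delta, read 0.19, -0.12 and -0.08. Of the 3 genes for the c subunit of the membrane ring, which encode the same mature protein, ATP5G2 (ATP5MC2) rose at 0.41, 0.36 and 0.48 (limma adjusted p = 0.0071), while ATP5G1 read 0.22, -0.02 and -0.01 and ATP5G3 0.20, -0.08 and -0.02. ATP5L (ATP5MG) and ATP5I (ATP5ME), small subunits of the membrane part, rose with means of 0.46 and 0.35, and ATP5O (ATP5PO), of the peripheral stalk, with 0.22. Genes of like brightness had medians of 0.33 for ATP5L, 0.32 for ATP5G2, 0.31 for ATP5E, 0.19 for ATP5O, 0.14 for ATP5A1 and 0.07 for ATP5I. ATP5O lost its call without background correction, with an offset of 16 and within twentieths of brightness. ATP5E lost its call in the first and last of these settings, and ATP5I in the last. ATP5S and ATP5SL carry names of this family on the array but are DMAC2L and DMAC2 in RefSeq, and read between -0.19 and 0.07. NDUFA4, counted with complex I by its symbol, is COXFA4 in RefSeq and read 0.23, 0.02 and 0.16.

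**Figure D3:**
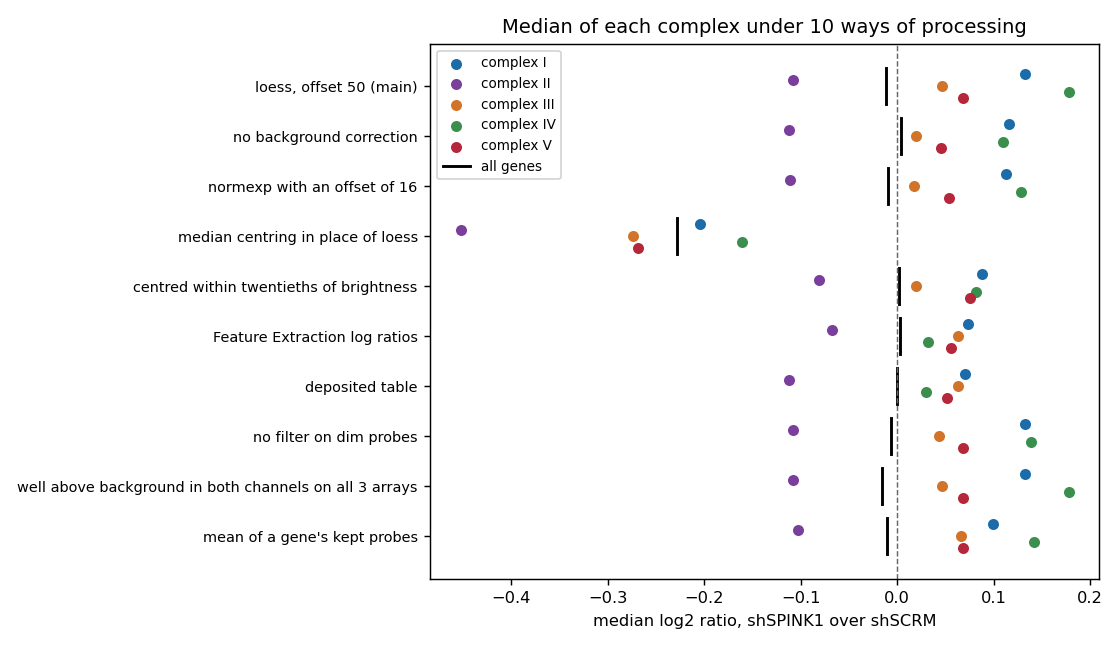
Median log2 ratio of shSPINK1 over shSCRM (x axis) of each complex (coloured points) and of all genes (black ticks) under 10 ways of processing the same 3 arrays (y axis). Complex II is the lowest in each, and under median centring every complex lies below 0 together with all genes, at -0.23.

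Where a gene had several probes, they did not always read alike. Of the 79 genes, 20 had more than 1 kept probe, and in 11 of these the means of the probes differed in sign. NDUFA10 rose on its bright probe (0.22, 0.37 and 0.22), while dimmer probes read -0.09, -0.06 and -0.03, and 0.17, 0.07 and 0.03. NDUFB5 read 0.20, 0.09 and 0.12 on its bright probe and -0.02, -0.11 and -0.34 on a dim one. The others were ATP5J2, ATP5S, COX5A, NDUFA12, NDUFB6, NDUFV3, SDHA, UQCR10 and UQCRB, none of which passed the test.

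**Figure D4:**
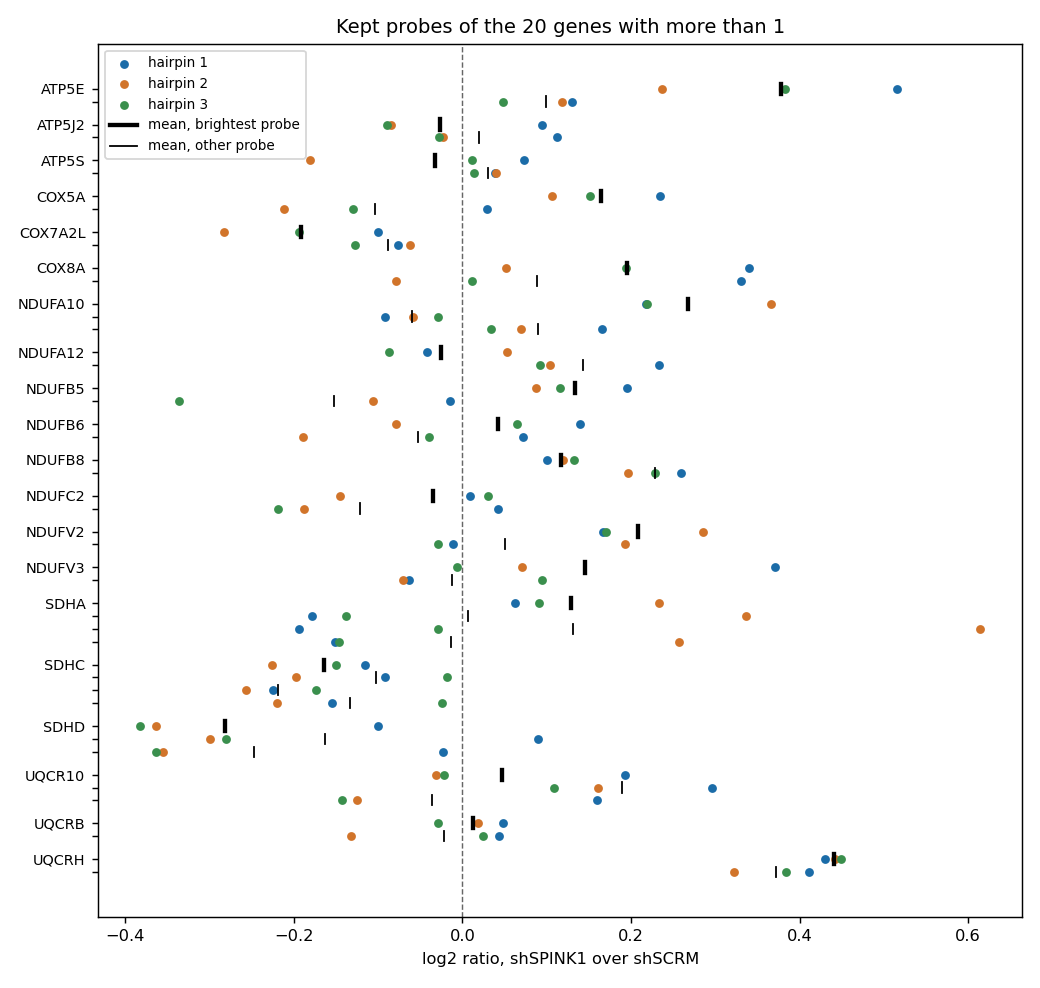
Log2 ratio of shSPINK1 over shSCRM (x axis) for each kept probe of the 20 genes with more than 1 (y axis, brightest probe first); points are hairpins, thick ticks the mean of the brightest probe and thin ticks that of the others. The UQCRH and SDHC probes lie on 1 side of 0, while those of COX5A and NDUFB5 lie on both.

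Of 76 measured genes that build, serve or regulate the complexes, 5 rose and 5 fell, together 13.2%, where 13.5% of all genes passed the test in either direction. Of 15 assembly factors of complex I, TIMMDC1 rose (0.30, 0.17 and 0.25), none fell, and the median was 0.01. SDHAF1, which helps to place the iron-sulfur clusters of complex II, fell (-0.22, -0.54 and -0.42, mean -0.39, limma adjusted p = 0.016), 1 of 2 such genes. Of 6 factors for complex III, UQCC1 fell (-0.16, -0.30 and -0.23), with a median of 0.06, and neither of the 2 for complex V passed. Of 23 for complex IV, COX17, a copper chaperone, rose (0.34, 0.34 and 0.38), as did COX16 (0.40, 0.22 and 0.43), and COA5 fell (-0.31, -0.23 and -0.24), with a median of 0.03. Of 12 mobile carriers and inhibitors, ADCK3 and COQ9, both needed to make ubiquinone, fell with means of -0.28 and -0.25, and ATPIF1, the inhibitor of the ATP synthase, rose with a mean of 0.32, the median being -0.05. Of 16 regulators of mitochondrial gene expression GABPB1, a subunit of the ETS factor GABP, rose (0.48, 0.27 and 0.22, limma adjusted p = 0.021), and the median was -0.02.

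The 11 measured genes of mitochondrial DNA, which are not all that it encodes, had a median of 0.00, and 1 fell and 1 rose, where 8.72% of all genes fell and 4.77% rose. CYTB, the complex III subunit, fell (-0.17, -0.50 and -0.32, limma adjusted p = 0.024), and ND6, of complex I, rose (0.47, 0.17 and 0.23, limma adjusted p = 0.034). ATP8, of complex V, read 0.94, 0.16 and 0.35 and did not pass (limma adjusted p = 0.053), with hairpin 1 far above the others.

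**Figure D5:**
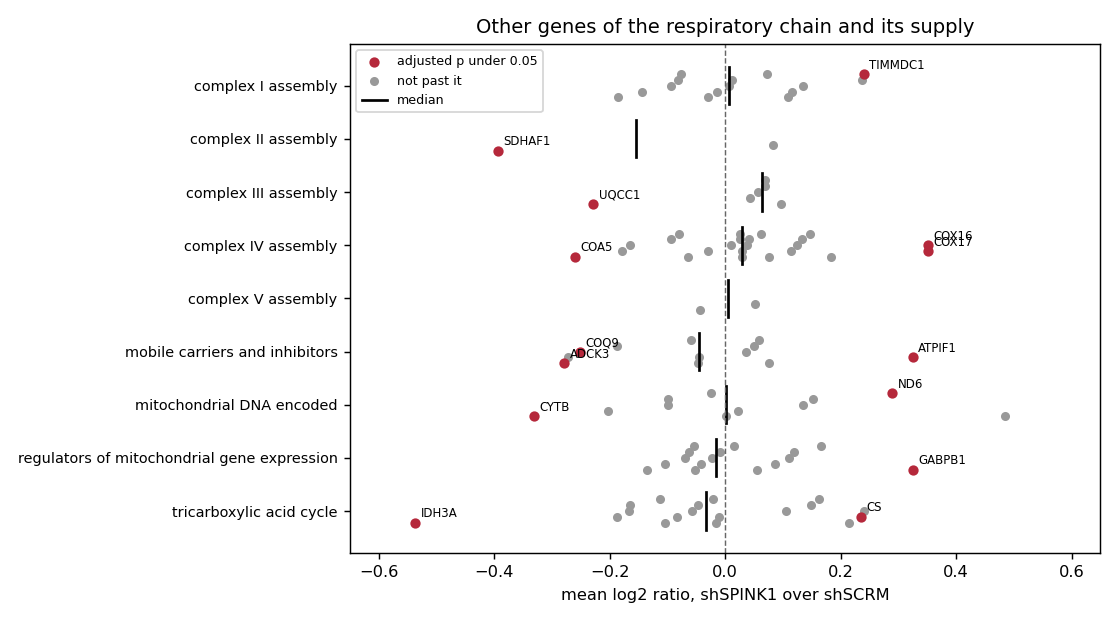
Mean log2 ratio of shSPINK1 over shSCRM (x axis) for genes of 9 further lists (y axis); each point is a gene, red and named where its adjusted p was under 0.05, and black ticks are medians. Most genes lie within 0.3 of 0, and the lowest is IDH3A, at -0.54.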

How the data were processed

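Two-colour Agilent arrays of 22RV1 cells (3 shSPINK1 hairpins in Cy5, shSCRM in Cy3) were analysed from the deposited spot intensities, which the authors extracted with Feature Extraction 11.5.1.1. Per the labels, poly(A) tails were added to the RNA before labelling. The deposited files also hold log10 ratios of the same spots after Lowess normalization, and a deposited table of log2 ratios per gene; both served as alternatives. Here intensities were background-corrected (normexp, offset 50), control spots removed, outlier values (0.203%) set aside, and ratios normalized by loess in limma 3.58.1 (R 4.3.3). A probe was kept if well above background in 1 channel on all 3 arrays, and the brightest kept probe stood for a gene. The mean of 3 arrays was tested against 0 with Benjamini-Hochberg adjustment over 17061 genes. The fit was tested on simulated data. The number of arrays limits the precision. All 79 genes matched RefSeq names, 19 under a newer symbol. Genes named were the called ones of largest size, the extremes and core subunits of each complex, those of widest range between hairpins and those whose probes differed in sign; others were named after their values were seen, and some genes are not reported here. The genes and lists were chosen with earlier results of these data known. Alternatives changed background correction, normalization, probe filter, probe summary and arrays.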

Additional observations from a re-analysis of the deposited data

How the results depend on the processing

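Counts of genes that rose and fell depended on the processing. Without background correction 10 rose and 3 fell, with an offset of 16, 12 and 2, with centring within twentieths of brightness, 12 and 5, without a filter on dim probes, 22 and 3, and with the mean of a gene's probes, 19 and 4, which ended the calls of SDHD, NDUFA10, NDUFV2 and ATP5A1. Of all 17061 genes 841 rose and 1029 fell without background correction, and 758 and 1184 with an offset of 16. Within twentieths 935 of all genes rose and 1052 fell, and with the mean of the probes 657 and 1309. Without the filter 811 of 43313 genes rose and 1460 fell. Under median centring 1 gene of the family rose (NDUFA5) and 46 fell, where 91 of all genes rose and 10339 fell. The Feature Extraction log ratios and the table the authors deposited each gave counts of 0 both ways by limma (5 above and 4 below 0 at an unadjusted p under 0.05), with 3 of all genes called. Leaving out 1 array gave 6 to 20 higher and 0 to 8 lower: without hairpin 1, 20 and 8, without hairpin 2, 13 and 0, and without hairpin 3, 6 and 0 (5 lower at an unadjusted p under 0.05 in each of the last 2). Of all 17061 genes 1272 rose and 1971 fell without hairpin 1, 433 and 616 without hairpin 2, and 169 and 278 without hairpin 3. The 5 that fell kept their sign in all settings run, and the 21 that rose in all but median centring (12 kept it), the Feature Extraction ratios and the deposited table (20 each). Median centring lowered these ratios, so the signs of the 5 that fell could not turn there. Under median centring the medians were -0.21 over all complexes and -0.20, -0.45, -0.27, -0.16 and -0.27 in complexes I to V. The Feature Extraction ratios gave 0.063 over all, 0.073 in complex I and 0.032 in complex IV, the deposited values 0.053, 0.070 and 0.030, and centring within twentieths 0.088 in complex I and 0.082 in complex IV. The cause was not tested.

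Signs turned for single genes. Under median centring COX5A was -0.16, COX5B -0.032, COX6C -0.011, NDUFA10 -0.077, NDUFB5 -0.21, NDUFB6 -0.29, NDUFS1 -0.28, NDUFV3 -0.20, SDHA -0.21, UQCR10 -0.27, UQCRB -0.33 and UQCRC1 -0.19, and among other genes that had risen NDUFV2 was -0.13, NDUFC1 -0.098, NDUFA8 -0.080, NDUFB9 -0.077, COX7C -0.084 and ATP5O -0.098. In the Feature Extraction ratios NDUFA12 was 0.072, NDUFB6 -0.015, UQCR10 -0.048, NDUFA4 -0.090, ATP5G3 -0.13 and COX6A1 -0.046, within twentieths NDUFA12 was 0.0014, NDUFB6 -0.078 and UQCR10 -0.073, and without background correction ATP5S was 0.013 and UQCR10 -0.021. In the deposited table ATP5S was 0.037, COX5A -0.017, NDUFA12 0.16, NDUFB5 -0.037, NDUFB6 -0.013 and UQCRB -0.047, and with the mean of the probes NDUFA12 was 0.059, NDUFB5 -0.0098, NDUFB6 -0.0052 and UQCRB -0.0045. Leaving out 1 array gave -0.088 to 0.0044 for ATP5J2, -0.085 to 0.042 for ATP5S, -0.065 to 0.0052 for NDUFA12, -0.0070 to 0.10 for NDUFB6, -0.019 to 0.15 for NDUFS1, -0.051 to 0.0061 for NDUFV1, -0.12 to 0.0027 for SDHB, -0.026 to 0.085 for UQCR10 and -0.0055 to 0.033 for UQCRB. No paired analysis was possible because there is a single group of arrays, each a ratio against its own control channel. A block for slide or scan was not run, since all arrays shared 1 of each.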

Other observations

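The tricarboxylic acid cycle feeds electrons to complexes I and II. Of 18 measured genes listed for the cycle and for pyruvate dehydrogenase, which supplies it, 1 fell and 1 rose, with a median of -0.03. Over all genes 8.72% fell and 4.77% rose, so these counts are near the general share. IDH3A, the catalytic subunit of the NAD-dependent isocitrate dehydrogenase, read -0.26, -0.66 and -0.70 with hairpins 1, 2 and 3 (mean -0.54, limma adjusted p = 0.013), with hairpin 1 nearest to 0. CS, citrate synthase, read 0.28, 0.30 and 0.13 (mean 0.24, limma adjusted p = 0.036).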
